A study of Mus musculus with 6 samples.

Results

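Keratin-associated proteins, encoded by the Krtap genes, were described here in mouse organoids labelled GATA6KO and in their controls. The members were all rows of the deposited gene table whose mouse symbol is Krtap followed by a digit, which gave 58 of 54418 genes. They were singled out because they were higher in the GATA6KO libraries, so their values in that contrast are a description. The fit across all genes is used only to count which of them it called, no p-value is given for a member, and nothing is concluded from the calls. Of the 58, 57 are annotated as protein-coding and Krtap19-9a as a processed pseudogene, and 55 lie in a single exon block. They fall into 5 chromosome clusters, with 23 genes on chromosome 11, 25 on chromosome 16, 5 on chromosome 7, 3 on chromosome 10 and 2 on chromosome 1.

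The study profiled poly(A)-selected RNA from cultured organoids in 2 groups of 3 libraries each. The first group carries the genotype label GATA6KO and the second the genotype label Control, and both are given the cell type AKP organoid. The labels do not spell out AKP, the way GATA6 was targeted, the number of clones or whether replicates came from separate cultures, so every p-value reflects only how far these 6 libraries scatter, and that scatter may be technical. GATA6 is a zinc-finger transcription factor of endodermal epithelia, and the series title ties its loss to lineage plasticity in colorectal cancer metastasis.

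Keratin-associated proteins form the matrix between the keratin filaments of hair and are cross-linked to the hair keratins and to each other through disulfide bonds. They are usually sorted by composition into high-sulfur and ultra-high-sulfur proteins, both rich in cysteine, and glycine-tyrosine proteins. In the follicle they are made late, in the cortex and cuticle of the shaft, after the hair keratins have appeared, and the intestine is not a tissue they are known for.

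The promoters of 5 genes are shown because they set members at high levels in each class beside a member that had no read. Each runs from 250 bases before to 50 bases after the annotated start, 5′ to 3′ on the gene's strand, from RefSeq on build GRCm38.p6. Capitals mark TATAAA as the TATA box, CTTTGA as the LEF/TCF core, and AGATAA together with the like TGATAA as GATA cores, on either strand. A longer capital run is TATAAA overlapping its own reverse complement. The genes were picked after their values were seen. Krtap1-5 (chr11:99580967-99581266, minus strand), the most abundant member, and Krtap3-1 (chr11:99566581-99566880, minus strand) are high-sulfur genes. Krtap4-1 (chr11:99628190-99628489, minus strand) is ultra-high-sulfur, and Krtap6-5 (chr16:89047850-89048149, minus strand) is a glycine-tyrosine gene. Krtap5-5 (chr7:142229922-142230221, minus strand) is an ultra-high-sulfur gene listed at 0 in all 6 libraries.
Krtap1-5: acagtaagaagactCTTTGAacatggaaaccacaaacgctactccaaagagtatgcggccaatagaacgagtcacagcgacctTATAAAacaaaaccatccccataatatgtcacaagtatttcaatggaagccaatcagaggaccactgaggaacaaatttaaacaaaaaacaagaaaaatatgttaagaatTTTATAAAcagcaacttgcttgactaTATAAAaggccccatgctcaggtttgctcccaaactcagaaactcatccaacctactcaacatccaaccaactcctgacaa
Krtap3-1: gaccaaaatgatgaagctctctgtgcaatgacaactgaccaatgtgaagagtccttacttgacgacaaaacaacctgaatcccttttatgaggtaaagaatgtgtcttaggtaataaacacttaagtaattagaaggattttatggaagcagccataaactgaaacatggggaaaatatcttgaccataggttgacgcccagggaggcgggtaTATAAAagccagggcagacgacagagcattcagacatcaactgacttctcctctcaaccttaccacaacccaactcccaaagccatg
Krtap4-1: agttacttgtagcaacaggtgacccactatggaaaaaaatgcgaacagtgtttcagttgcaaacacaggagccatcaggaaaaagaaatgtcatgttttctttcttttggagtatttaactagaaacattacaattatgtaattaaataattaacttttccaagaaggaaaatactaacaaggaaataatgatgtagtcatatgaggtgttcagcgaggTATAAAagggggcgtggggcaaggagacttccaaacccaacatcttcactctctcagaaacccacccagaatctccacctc
Krtap6-5: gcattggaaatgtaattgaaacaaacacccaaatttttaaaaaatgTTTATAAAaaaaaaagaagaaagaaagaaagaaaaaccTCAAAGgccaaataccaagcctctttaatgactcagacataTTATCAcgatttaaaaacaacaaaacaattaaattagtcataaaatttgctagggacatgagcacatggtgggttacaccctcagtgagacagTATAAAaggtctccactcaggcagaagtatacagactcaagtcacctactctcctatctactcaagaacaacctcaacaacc
Krtap5-5: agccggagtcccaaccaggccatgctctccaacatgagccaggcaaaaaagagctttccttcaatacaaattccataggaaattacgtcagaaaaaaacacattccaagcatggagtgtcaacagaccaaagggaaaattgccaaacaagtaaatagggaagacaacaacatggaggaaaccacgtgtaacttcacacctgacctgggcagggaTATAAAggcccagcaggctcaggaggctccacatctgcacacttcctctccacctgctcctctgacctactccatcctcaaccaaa

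A TATAAA began 20 to 40 bases before the start in all 5 of these promoters. Its first base lay at position -31 in Krtap1-5 and Krtap4-1, -32 in Krtap6-5, -36 in the unread Krtap5-5 and -37 in Krtap3-1. Of the 58 members, 51 matched a promoter in the RefSeq table, and 31 of the 51 (60.8%) held TATAAA on the gene's strand in that window, a window chosen after the first motif counts were seen. Over all 27025 promoters of the same length the share was 2.09%. On either strand and anywhere in the 300 bases, TATAAA was in 82.4% of Krtap promoters and 14.2% of all promoters. CTTTGA was in 29.4% of Krtap promoters and 16.2% of all, AGATAA in 21.6% and 11.4%, and TGATAA in 17.6% and 9.26%. For the HOX core, TTTATT was in 23.5% of Krtap promoters and 19.96% of all, and the letters TTTAC were in 56.9% and 31.8%. Split by level, the TATAAA window was filled in 70.6% of the 17 Krtap promoters whose gene averaged at least 1 CPM (counts per 1000000, scaled between libraries by TMM) in GATA6KO and in 55.9% of the 34 others, and CTTTGA was in 41.2% and 23.5%. AGATAA was in 23.5% of the 17 and 20.6% of the 34, TGATAA in 17.6% of both. The HOX letters were less frequent in the 17, with TTTATT in 17.6% and 26.5%, and the letters TTTAC in 47.1% and 61.8%. None of these differences was tested. Such matches describe the letters in these windows and are neither binding sites nor causes. Krtap12-1, Krtap10-10, Krtap9-1, Krtap19-9a, Krtap28-10, Krtap1-3 and Krtap7-1 had no promoter in that table.

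The libraries held 29674562, 29208525 and 29339961 counts in GATA6KO and 22973245, 29685711 and 31328415 in Control. Gata6, the targeted gene, had 427, 489 and 247 counts in GATA6KO, against 577, 669 and 840 in Control, without overlap. Its transcripts were still counted in the GATA6KO libraries at 12.9 ± 4.09 CPM against 25.5 ± 2.42 in Control (SD, n = 3 each), with a log2 fold change of -0.99 (SE 0.25; edgeR's quasi-likelihood test, Benjamini-Hochberg adjusted p = 0.0486). That call was lost in 5 of the alternatives, among them each one that left out a Control library, with an adjusted p of up to 0.181, and an exact two-sided permutation test gave p = 0.10, the smallest that 3 against 3 allows. GATA6KO replicate 2 stood apart by its genes on chromosome 14, whose median log2 ratio to the Control mean was -0.90 among those averaging at least 5 CPM in Control. No Krtap gene lies there, and 20 were called higher without that library, as with it. Mitochondrial genes took 2.07 to 2.84% of counts in GATA6KO and 1.85 to 1.88% in Control. The intestinal epithelium markers were all present, summing to 6570 to 7708 CPM in GATA6KO and 9608 to 10413 in Control. Of these 9, all tested, Krt18, Krt8 and Cdh1 were called lower, beside 5.47% of all genes tested. These calls were lost without Control replicate 2 and without Control replicate 3, with adjusted p-values of up to 0.127. Of the 10 epidermal markers 5 were tested, and Lor alone was called higher, beside 6.92% of all genes tested. It had 401, 337 and 353 counts in GATA6KO against 62, 86 and 82 in Control (edgeR, adjusted p = 0.00194). Among the basal keratinocyte markers Krt5 and Trp63 were near 0. Krt5 had 0, 1 and 1 counts in GATA6KO against 0, 2 and 1 in Control, and Trp63 had 1, 4 and 1 against 0, 2 and 0. Krt14, another basal keratin, was read in both groups, with 72, 762 and 340 counts in GATA6KO against 228, 278 and 258 in Control, and was not called. Dsg3 of the epidermal list had 464, 450 and 332 counts in GATA6KO against 439, 568 and 705 in Control and was not called. Krt15, a keratin outside the list, had 3644, 3909 and 1822 counts in GATA6KO against 116, 110 and 83 in Control and was called higher. Fibroblast, immune and endothelial marker lists each summed to at most 0.634 CPM in every library.

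Krtap counts summed to 10129, 5779 and 4424 in the GATA6KO libraries and to 130, 114 and 116 in the Control libraries. The lowest GATA6KO library held far more than the highest Control library. They made up 0.0341%, 0.0198% and 0.0151% of counts in GATA6KO, against 5.66e-04%, 3.84e-04% and 3.70e-04% in Control. In CPM the sum was 225 ± 100.5 in GATA6KO and 4.505 ± 1.03 in Control (SD, n = 3 each), a ratio of the means of 49.99. In bulk RNA, more cells that express a gene and more RNA per cell cannot be told apart.

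Of the 58 members, 44 had at least 1 count, and 14 were at 0 in all 6 libraries. A library held counts of 41, 38 and 39 members in GATA6KO and of 15, 17 and 16 in Control. A count in each library of the group was found for 36 members in GATA6KO and for 9 in Control. Over the 3 Control libraries together, 19 members with a GATA6KO count had none, 13 had 1 to 3 counts and 12 had at least 4. The filter on low counts kept 22 members for the fit across all genes, and 20 of these were past its threshold in the higher direction, none in the lower, where 6.92% of all 14714 genes tested were called higher and 5.47% lower. Without the filter 25 of 44 were called, where 3.55% of genes were called higher. Nothing is read from these counts, because the contrast chose the members and most passed the filter through their GATA6KO counts. The log2 fold changes of the 22 ran between 1.04 and 8.83 with a median of 6.31, beside a median of 0.02 and a 99th percentile of 3.44 over all genes tested. A fitted log2 fold change above 5 was found for 20 of them, and for 0.455% of all genes tested. Among the 20, Krtap4-8, the highest at 8.83, Krtap22-2 and Krtap8-1 had no count in Control. Their fitted values therefore have no measured Control level behind them. Set against 3 Control counts they were at least 53.9-fold, 28.6-fold and 15.4-fold higher. In 36 of the 44 members with a count the lowest GATA6KO value lay above the highest Control value, where 12.2% of all genes with a count did so. The 36 include all 22 tested members, where 20.3% of all genes tested did so.

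**Figure D1:**
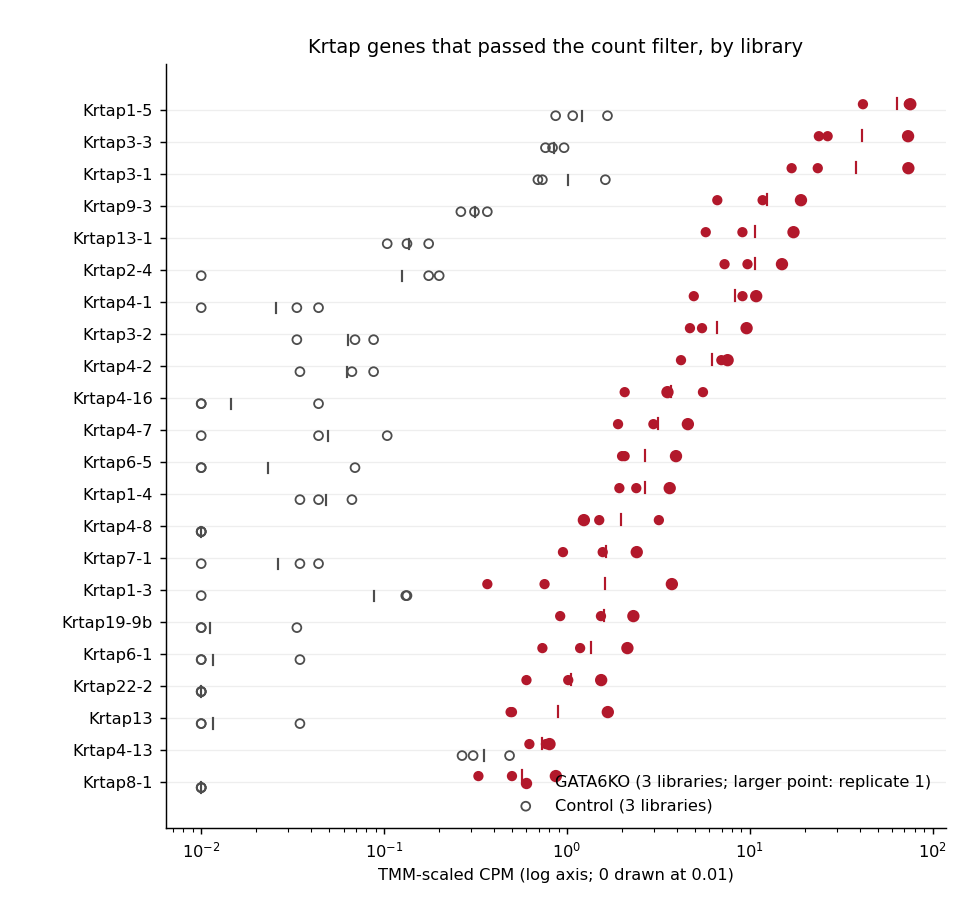
TMM-scaled CPM of the 22 Krtap genes that passed the count filter, in each GATA6KO library (filled points, upper row of each gene) and each Control library (open points, lower row), on a log axis with 0 drawn at 0.01; short vertical lines are group means. In every gene shown the GATA6KO points lie to the right of the Control points, Krtap4-13 comes nearest to overlap, and GATA6KO replicate 1 (larger point) is the highest in most genes.

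The high-sulfur genes supplied most of the Krtap counts, with 80.9%, 74.5% and 78.7% in GATA6KO and 85.4%, 70.2% and 77.6% in Control. Their sum was 177 ± 84.9 CPM in GATA6KO and 3.55 ± 1.15 CPM in Control (SD, n = 3 each). Per kilobase of exonic length, so that long transcripts do not weigh more, the class held 78.3% of the summed level in GATA6KO and 79.2% in Control. Of their 21 genes, 16 had a count and 9 passed the filter. Krtap1-5, the most abundant member of the whole family by CPM, stood at 75.4, 74.0 and 41.5 CPM in GATA6KO, against 1.66, 1.07 and 0.867 CPM in Control. It encodes a KAP1 protein of the shaft cortex, its groups did not overlap, and its log2 fold change was 5.74 (SE 0.36). Krtap3-3 had 73.3, 23.8 and 26.6 CPM in GATA6KO, against 0.964, 0.763 and 0.834 CPM in Control, a log2 fold change of 5.59 (SE 0.55). Krtap3-1 had 73.6, 16.9 and 23.5 CPM in GATA6KO, against 1.62, 0.693 and 0.734 CPM in Control, a log2 fold change of 5.25 (SE 0.72). Both are small KAP3 proteins, and in both GATA6KO replicate 1 stood far above the other GATA6KO libraries, which themselves stood well above every Control library. Without GATA6KO replicate 1 the log2 fold change was 4.88 for Krtap3-3 and 4.33 for Krtap3-1, a shift of over 1.5-fold in each. Krtap3-1 was not called when Control replicate 3 was left out, nor in the fit without a filter. Per kilobase of exonic length these 3 genes were close to each other in GATA6KO, at 61.1 CPM per kilobase for Krtap1-5, 56.0 for Krtap3-3 and 62.9 for Krtap3-1, differences smaller than the spread between libraries. Between 30.3% and 42.9% of the 31-base words of Krtap3-2 and Krtap3-3 occur in the other of the pair, so the split of reads between them is uncertain.

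Below them came Krtap13-1, a high-sulfur gene of the chromosome 16 cluster and its most abundant member. The name follows the Ensembl ID of the row, and RefSeq gives Krtap13-1 as a synonym of another gene of the cluster, 2310057N15Rik, which had 47, 27 and 28 counts in GATA6KO and none in Control. The row named Krtap13-1 here had 17.3, 5.74 and 9.11 CPM in GATA6KO, against 0.175, 0.104 and 0.133 CPM in Control, without overlap and with a log2 fold change of 6.26 (SE 0.56). Krtap2-4 had 14.98, 9.70 and 7.27 CPM in GATA6KO, against 0.175, 0 and 0.200 CPM in Control, a log2 fold change of 6.38 (SE 0.73). Of its 31-base words 46.0% also occur in Gm11562, the next gene on the chromosome, so reads of that pair may have been split between them. Per kilobase, Krtap13-1 stood at 14.3 and Krtap2-4 at 12.9 CPM per kilobase in GATA6KO. Krtap1-3, another KAP1 gene, was tested and not called. Its counts were 112, 23 and 11 in GATA6KO, against 3, 0 and 4 in Control, with a log2 fold change of 4.16 and the largest standard error of the 22, 1.19. The groups did not overlap, but the GATA6KO libraries ranged over a factor of 10.2 in CPM. It was called in DESeq2 and when GATA6KO replicate 3 was left out, and its log2 fold change was 2.64 without GATA6KO replicate 1 and 3.55 without Control replicate 2.

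The ultra-high-sulfur genes supplied 14.4%, 21.5% and 16.1% of the Krtap counts in GATA6KO and 13.8%, 25.4% and 20.7% in Control. Their sum was 37.8 ± 12.8 CPM in GATA6KO and 0.865 ± 0.122 CPM in Control (SD, n = 3 each). Per kilobase they held 14.9% of the summed level in GATA6KO and 18.1% in Control. Krtap9-3 led them, at 19.03, 11.7 and 6.64 CPM in GATA6KO, against 0.263, 0.312 and 0.367 CPM in Control, without overlap and with a log2 fold change of 5.28 (SE 0.48). At 16.4 CPM per kilobase in GATA6KO it was close to Krtap13-1. Its class follows its family number, and with 27.2% cysteine, the lowest of the class, Krtap9-3 is high-sulfur by composition. The KAP4 genes lie next to each other on chromosome 11, and all 8 had counts in every GATA6KO library. Krtap4-1 had 324, 278 and 148 counts in GATA6KO, against 1, 0 and 1 in Control, a pooled ratio of 339 with an exact 95% interval of 93.5 to 2803, which covers counting error only. Krtap4-16 had 106, 169 and 62 counts in GATA6KO, against 1, 0 and 0 in Control, a pooled ratio of 304 (54.3 to 12060). Krtap4-8 had 37, 97 and 45 counts in GATA6KO and none in Control, which makes it at least 53.9-fold higher when the Control group is set to 3 counts. Krtap4-16 and Krtap4-8 were the only members averaging at least 1 CPM in GATA6KO whose highest library there was replicate 2.

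Krtap4-13 was the member with the smallest log2 fold change among those tested, 1.04 (SE 0.36), and it was not called. It had 24, 19 and 23 counts in GATA6KO, against 7, 14 and 8 in Control. Per kilobase of exonic length its mean was 0.897 CPM in GATA6KO, where 22 Krtap genes stood higher, and 0.433 CPM in Control, where only Krtap1-5, Krtap3-1 and Krtap3-3 did. Of its 31-base words, 89.0% occur in the neighbouring Gm11554, so the counts of the pair are uncertain. No other tested member shared as many.

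The glycine-tyrosine genes, all on chromosome 16, supplied 4.64%, 3.95% and 5.15% of the Krtap counts in GATA6KO and 0.769%, 4.39% and 0.862% in Control. Their sum was 10.3 ± 4.72 CPM in GATA6KO and 0.0835 ± 0.0780 CPM in Control (SD, n = 3 each). Per kilobase, their short transcripts held 6.83% of the summed level in GATA6KO and 2.53% in Control. The Control values rest on 1, 5 and 1 counts, too few to show whether the class held a different part of the family there. Of 16 genes, 12 had a count and 6 passed the filter, all with a fitted log2 fold change above 5. For Krtap22-2 and Krtap8-1, with no count in Control, the fitted value has no measured Control level behind it, so a lower bound is given instead. Krtap6-5, the most abundant, had 118, 63 and 60 counts in GATA6KO, against 0, 2 and 0 in Control, a pooled ratio of 109 (29.8 to 904). Krtap7-1 had 72, 29 and 47 counts in GATA6KO, against 1, 1 and 0 in Control, a pooled ratio of 66.9 (18.2 to 557). Krtap19-9b had 69, 28 and 46 counts in GATA6KO, against 0, 0 and 1 in Control, a pooled ratio of 129 (22.8 to 5138). None of these overlapped between the groups. Krtap22-2 was at least 28.6-fold higher and Krtap8-1 at least 15.4-fold higher in GATA6KO, each with no count in Control. The KAP19 genes were uneven, since Krtap19-1, Krtap19-2 and Krtap19-4 were at 0 throughout while Krtap19-5 had 33, 7 and 2 counts in GATA6KO and none in Control, at least 12.6-fold higher.

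Between the members kept and those dropped by the filter lay Krtap8-1 just inside, with 26, 10 and 15 counts in GATA6KO, and Krtap11-1 just outside, with 9, 45 and 12 counts. Neither had a count in Control. Krtap11-1, a high-sulfur gene at the far end of the chromosome 16 cluster, was at least 19.9-fold higher in GATA6KO, and its replicate 2 was the high one. The 22 untested members with a GATA6KO count held between 1 and 66 counts over the 3 libraries. In 14 of them every GATA6KO value lay above every Control value, beside 12.2% of all genes with a count. That share includes the tested genes, of which 20.3% did so, and is not the share among untested genes alone. Nothing is read from the 14, because the contrast chose the members. Krtap14 and Krtap15 overlap on opposite strands with at most 4 counts a library, and the use of strand in counting is not given in the sources used here, so their counts cannot be told apart. The 14 members at 0 in all libraries were Krtap28-10, Krtap10-4, Krtap9-5, Krtap29-1, Krtap16-1, Krtap24-1, Krtap19-1, Krtap19-2, Krtap19-4, Krtap16-3, Krtap20-2, Krtap5-2, Krtap5-3 and Krtap5-5. A total of 0 allows a level of up to 0.0332 CPM over the GATA6KO libraries and 0.0367 CPM over the Control libraries, for counting error only.

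By position, the chromosome 11 cluster (99550130 to 99993994 on mm10, 444 kb) supplied 89.4%, 91.7% and 87.9% of Krtap counts in GATA6KO and 96.2%, 91.2% and 94.8% in Control. Its sum was 202 ± 90.05 CPM in GATA6KO and 4.25 ± 1.06 CPM in Control (SD, n = 3 each). The chromosome 16 cluster (88610705 to 89571183, 960 kb) supplied 10.5%, 8.18% and 12.1% in GATA6KO and 3.85%, 7.89% and 4.31% in Control, with 22.96 ± 10.98 CPM and 0.233 ± 0.0736 CPM. The other 3 clusters were close to silent. On chromosome 7 the KAP5 genes had 2, 0 and 2 counts in GATA6KO, against 0, 1 and 0 in Control, and Krtap5-4, one of the pair with a count in GATA6KO, had 2, 0 and 0 against 0, 1 and 0. On chromosome 10 the KAP10 and KAP12 genes had 2, 4 and 0 counts in GATA6KO and none in Control, nearly all from Krtap12-1 with 1, 4 and 0. On chromosome 1 Krtap28-13 alone was read, with 1, 0 and 1 counts in GATA6KO, against 0, 0 and 1 in Control.

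Within the chromosome 11 cluster the members' values differed between stretches of the map. The 17 Krtap genes between Krtap3-3 and Krtap9-1 (99550130 to 99874432) all had counts in each GATA6KO library, with totals of 17 to 5755 counts a gene, 18242 in all against 339 in Control. The 6 Krtap genes beyond, from Krtap31-1 to Krtap17-1 (99907920 to 99993994), held 7 counts over the GATA6KO libraries and none in Control, and not one of them had a count in each GATA6KO library. The split was made after the values were seen. Both stretches hold high-sulfur and ultra-high-sulfur genes. In the second these are the high-sulfur Krtap29-1 and Krtap16-1 and the ultra-high-sulfur Krtap17-1 and Krtap9-5, a family mate of Krtap9-3. The KAP31 pair there was not placed in a class. The first stretch also holds other protein-coding genes at 0 in all libraries, Gm14190, Gm14180 and 2300003K06Rik. The second stretch was not silent as a whole, since Gm11565, between Krtap31-1 and Krtap31-2, had 15, 12 and 11 counts in GATA6KO and none in Control. Cysteine makes up 25.6% of its annotated protein. It passed the filter through its GATA6KO counts, so its call, lost in 3 alternatives, supports nothing. On chromosome 16 the genes at 0 were interspersed singly and in runs, Krtap16-3 between Krtap19-9b and Krtap22-2, and 6 genes in a row from Gm6358 to Krtap20-2, after which every gene had GATA6KO counts.

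**Figure D2:**
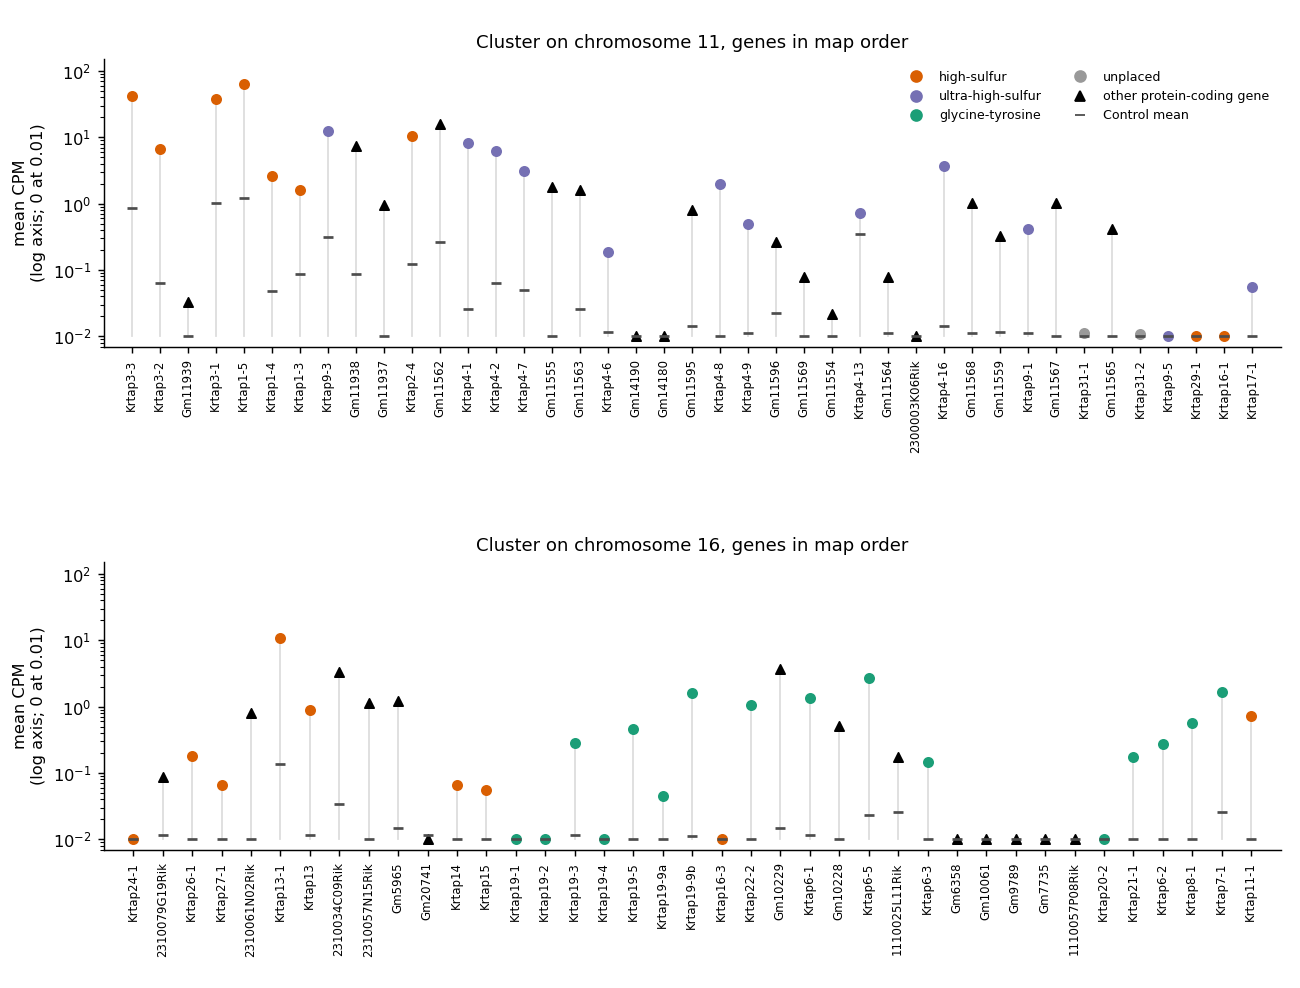
Mean TMM-scaled CPM in GATA6KO (points for Krtap genes coloured by class, triangles for other protein-coding genes) and in Control (dashes) for each gene of the chromosome 11 and chromosome 16 clusters in map order, on a log axis with 0 drawn at 0.01. On chromosome 11 the 17 Krtap genes up to Krtap9-1 are all read in GATA6KO and the 6 Krtap genes beyond are at or near 0 with Gm11565 read among them, while on chromosome 16 genes at 0 stand singly and in runs.

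A few genes carried the family. The 3 most abundant members held 65.6%, 60.5% and 62.1% of Krtap counts in GATA6KO and 74.6%, 64.0% and 62.9% in Control, and the 10 most abundant held 90.1%, 89.2% and 88.5% in GATA6KO and 90%, 77.2% and 84.5% in Control. Only 6 members averaged at least 10 CPM in GATA6KO, and 19 averaged at least 1 CPM. The make-up by family differed between the GATA6KO libraries. KAP3 genes took 46.2%, 24.4% and 37.2% of Krtap counts in GATA6KO and 46.9%, 38.6% and 41.4% in Control. KAP1 genes took 24.4%, 40.7% and 29.7% in GATA6KO and 32.3%, 28.1% and 27.6% in Control. KAP4 genes took 8.61%, 15.02% and 11.4% in GATA6KO and 9.23%, 16.7% and 10.3% in Control. The CPM of GATA6KO replicate 1 over that of replicate 2 was 3.38 for KAP3 and 3.05 for KAP13, 2.10 for the glycine-tyrosine class, and 1.07 for KAP1 and 1.03 for KAP4. Over that of replicate 3 it was 2.85 for KAP3, 1.98 for KAP13, 2.07 for the glycine-tyrosine class, 1.89 for KAP1 and 1.74 for KAP4, so that the families lay closer together there. It was the highest GATA6KO library in 17 of the 19 members that averaged at least 1 CPM there.

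**Figure D3:**
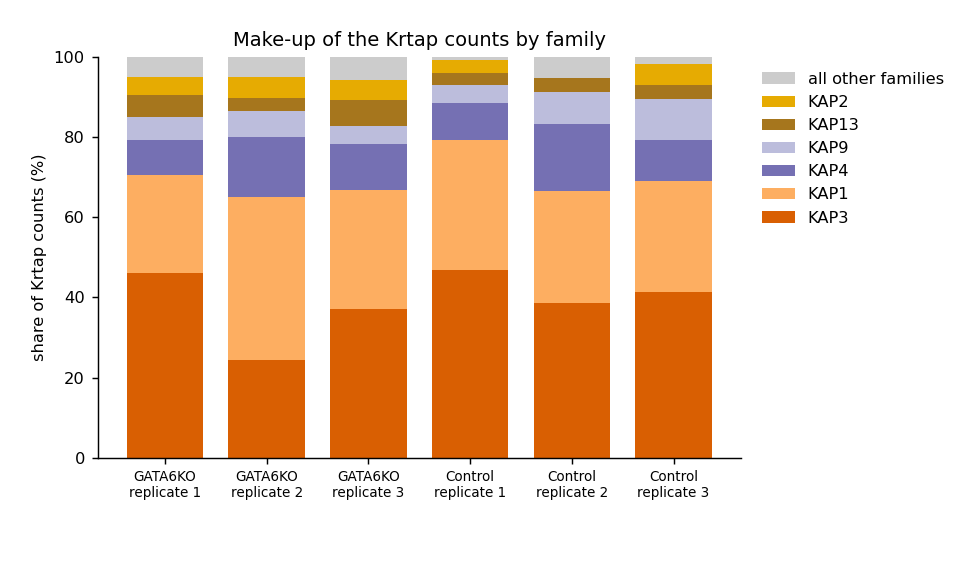
Share of all Krtap counts (percent) taken by 6 families and by all other families together, in the 3 GATA6KO libraries and the 3 Control libraries. KAP3 ranges between 24.4% and 46.2% across the GATA6KO libraries, with KAP1 at its highest, 40.7%, where KAP3 is at its lowest.

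The class by family number was set against the composition of the annotated protein for the 57 coding members. Cysteine made up a median of 37.7% of residues in the ultra-high-sulfur class (27.2 to 41.5%), 20.1% in the high-sulfur class (4 to 30.6%) and 8.05% in the glycine-tyrosine class (0 to 16.7%). Glycine plus tyrosine made up a median of 63.3% in the glycine-tyrosine class (29.9 to 69.2%), 8.09% in the high-sulfur class and 4.79% in the ultra-high-sulfur class. Cysteine in the genes averaging at least 1 CPM in GATA6KO ran between 0% in Krtap19-9b and 38.8% in Krtap4-8. The 5 members with over 40% cysteine, Krtap28-10, Krtap28-13, Krtap5-5, Krtap5-4 and Krtap5-1, averaged at most 0.0223 CPM there. A corner of the family that combines at least 34% cysteine with at least 34% glycine and tyrosine, the KAP28 pair, Krtap17-1, Krtap5-2 and Krtap5-3, averaged at most 0.0557 CPM in GATA6KO. That corner was drawn after the values were seen. By composition alone 8 placed coding members changed class, Krtap9-3 and Krtap7-1 among them, and the mean shares in GATA6KO became 83.7%, 12.5% and 3.81% for the high-sulfur, ultra-high-sulfur and glycine-tyrosine classes, in place of 78.1%, 17.3% and 4.58%.

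**Figure D4:**
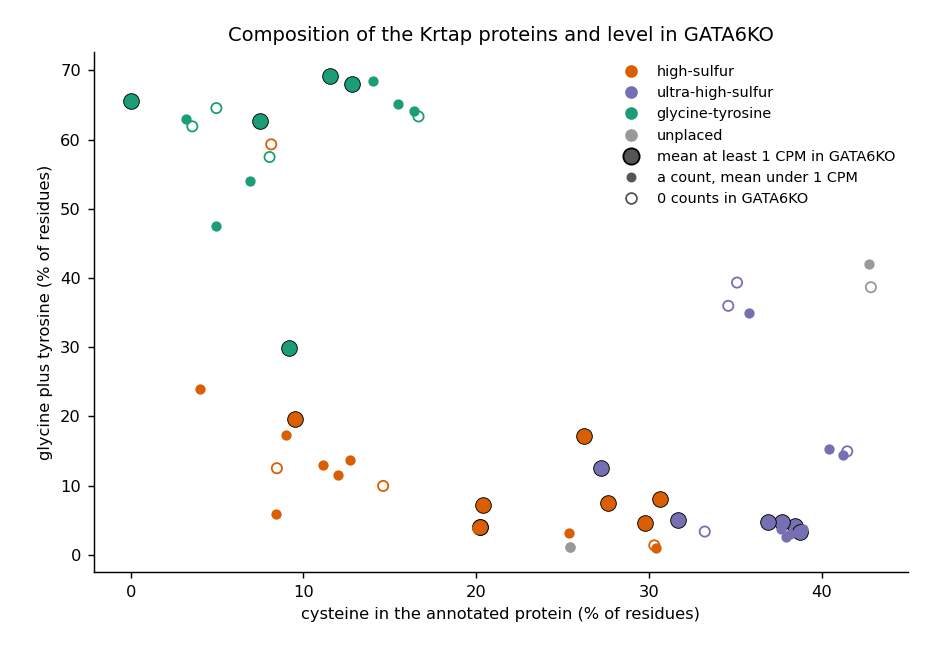
Cysteine content against glycine plus tyrosine content (both percent of residues) for the 57 coding Krtap genes, coloured by class, with large outlined points for genes averaging at least 1 CPM in GATA6KO, small points for other genes with a GATA6KO count and open points for genes at 0. Large points occur in all 3 classes, and the points with both high cysteine and high glycine plus tyrosine are small or open.

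Inside the clusters lie 51 further protein-coding genes, 43 with a Gm symbol and 8 with a Rik symbol. In 50 of the 51 cysteine made up over 10% of the annotated protein. Of these 51 genes 26 were at 0, including all 12 on chromosome 10 and all 5 on chromosome 7, and 13 passed the filter. All 13 were called higher and none lower (edgeR, beside 6.92% of all genes tested), 9 on chromosome 11 and 4 on chromosome 16. None of the 13 had more than 8 counts in a Control library, under the filter's minimum of 10, so they were tested because they were high in GATA6KO and their count of calls supports nothing. For the same reason no p-value is given for these genes. Gm11562 had 587, 480 and 356 counts in GATA6KO, against 8, 8 and 5 in Control, without overlap and with a log2 fold change of 5.90 (SE 0.35). Gm11938 had 347, 149 and 178 counts in GATA6KO, against 2, 5 and 0 in Control, a log2 fold change of 6.37 (SE 0.79). Cysteine makes up 30.9% of the annotated protein of Gm11562, just above the highest high-sulfur member (30.6%), and 29.8% of that of Gm11938. Gm10229 on chromosome 16, where glycine and tyrosine make up 70.1% of the protein, had 184, 75 and 75 counts in GATA6KO, against 1, 0 and 0 in Control. Gm11563, which lies among the KAP4 genes, had 37, 71 and 37 counts in GATA6KO, against 1, 1 and 0 in Control. Together the 51 genes held 1664, 1209 and 970 counts in GATA6KO and 15, 22 and 8 in Control. Some share sequence with members, as Gm11562 does with Krtap2-4.

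Outside the clusters, of the 83 protein-coding genes within 500 kb of a cluster's ends, keratins left out, 39 were tested, 4 were called higher and 4 lower (6.92% and 5.47% of all genes tested), and their median log2 fold change was -0.01. Cldn8, a claudin beside the chromosome 16 cluster, was higher, with 821, 1175 and 640 counts in GATA6KO against 137, 214 and 129 in Control (log2 fold change 2.30, SE 0.29, adjusted p = 0.00599). Tspear, whose annotated span contains the chromosome 10 cluster, had 40, 20 and 39 counts in GATA6KO against 5, 1 and 3 in Control (3.23, SE 0.61), while the Krtap genes there were nearly unread. Its Control counts were under the filter's minimum of 10, so it was tested through its GATA6KO counts and its call supports nothing. Dusp8, a phosphatase gene beside the chromosome 7 cluster, was lower, with 462, 525 and 410 counts in GATA6KO against 806, 990 and 1163 in Control (-1.23, SE 0.13, adjusted p = 0.00320). Tm4sf20, beside the chromosome 1 cluster, had 79, 236 and 352 counts in GATA6KO against 1117, 1721 and 1638 in Control (-2.88, SE 0.48, adjusted p = 0.0147). The calls of Tspear and Tm4sf20 were lost whenever a Control library was left out, with adjusted p-values of up to 0.125 and 0.0767. The remaining called genes were Ccl20 and Adarb1, higher, and Syt8 and Eif1, lower, each with a call lost in 6 or 7 alternatives. Beside the chromosome 11 cluster none of 8 tested genes was called higher. The keratin genes left out of that count went the other way, since of 27 within the same window, 15 tested, 9 were called higher and none lower, up to 138 kb from the cluster, among them all 7 tested type I hair keratins. Of these, Krt32 and Krt39 lost their calls in 5 and 4 alternatives.

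Other genes of hair formation were counted from lists drawn up with earlier results of these libraries known, so that their direction is no independent evidence. Of 74 listed genes in the table, 48 were tested, 25 were called higher and 1 lower, beside 6.92% and 5.47% of all genes tested. Among the hair keratins, the filaments into which Krtap proteins are cross-linked, all 7 tested type I and all 5 tested type II genes were higher. The calls of Krt32 and Krt39 were lost in 5 and 4 alternatives, with adjusted p-values of up to 0.1175 and 0.136. Each one that left out a Control library was among them. Krt39 had the smallest log2 fold change of the tested hair keratins, 1.03 (SE 0.22). The type I genes summed to 721 to 827 CPM in GATA6KO and 32.3 to 45.6 CPM in Control, and the type II genes to 896 to 1174 CPM and 34.9 to 63.4 CPM. Ordered by adjusted p, the type I list was led by Krt34 (log2 fold change 5.35, SE 0.25, adjusted p = 6.54e-04), and Krt33a (4.84), Krt36 (4.04) and Krt31 (4.70) followed. The type II list was led by Krt81 (5.69, SE 0.29, adjusted p = 6.60e-04), and Krt83 (3.97), Krt86 (6.51) and Krt87 (4.74) followed. GATA6KO replicate 1 was the highest GATA6KO library in Krt33b, Krt81, Krt86 and Krt87, and in no other tested hair keratin. Krt31, a cortex keratin, was among the others, with a CPM of 38.9, 39.2 and 73.4 in GATA6KO against 2.94, 1.32 and 1.63 in Control. The keratins of the inner root sheath and companion layer were near 0, since Krt25, Krt72, Krt73 and Krt74 had no count, none was tested, and Krt27 had 17, 11 and 2 counts in GATA6KO against 3, 4 and 1 in Control.

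Of 19 tested regulators of the shaft, 4 were higher and 1 lower, beside the same 6.92% and 5.47%. Msx2, a homeobox factor of the hair matrix, had 29.3, 16.8 and 15.01 CPM in GATA6KO against 1.008, 0.971 and 1.07 CPM in Control (log2 fold change 4.32, SE 0.32, adjusted p = 0.00153). Lef1, the transcription factor that binds the LEF/TCF core, had 56.3, 36.1 and 33.2 CPM in GATA6KO against 13.1, 11.4 and 9.04 CPM in Control (1.91, SE 0.25, adjusted p = 0.00654). Foxn1, the factor missing in nude mice, had 94.3, 61.3 and 52.8 CPM in GATA6KO against 23.3, 18.5 and 20.2 CPM in Control (1.75, SE 0.23, adjusted p = 0.00680). In all 3 genes the groups did not overlap and GATA6KO replicate 1 was the highest library. Dlx3 was also higher (2.11, SE 0.32, adjusted p = 0.0113), a call lost without any of the Control libraries (adjusted p of up to 0.0624). Gata3, a factor of the inner root sheath, was lower, with 112, 52 and 22 counts in GATA6KO against 225, 278 and 393 in Control (-2.40, SE 0.55, adjusted p = 0.0365). That call was lost in 6 alternatives, among them each one that left out a Control library, with an adjusted p of up to 0.143. Hoxc13, which drives hair keratin and Krtap genes in the mouse follicle, was listed at 0 in all 6 libraries, as were Foxe1 and Foxi3.

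Of 17 tested genes of cross-linking and cornification, 9 were higher and none lower, again beside 6.92% and 5.47%. Mt4, a metallothionein of stratified epithelium, had 1041, 668.5 and 856 CPM in GATA6KO against 113, 101 and 81.4 CPM in Control (3.12, SE 0.21, adjusted p = 0.00120). Gprc5d, a receptor of hair-forming cells, had 19.4, 13.8 and 9.84 CPM in GATA6KO against 0.570, 0.381 and 0.367 CPM in Control (5.03, SE 0.36, adjusted p = 0.00145). Prr9 (3.97, SE 0.30, adjusted p = 0.00153) and Dsg4, the desmosomal cadherin of the shaft (3.89, SE 0.39, adjusted p = 0.00305), were higher as well, without overlap. Tchh, the trichohyalin of the inner root sheath and medulla, had 417, 667 and 190 counts in GATA6KO against 366, 491 and 467 in Control, so the groups overlapped (-0.21, SE 0.40, adjusted p = 0.758).

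**Figure D5:**
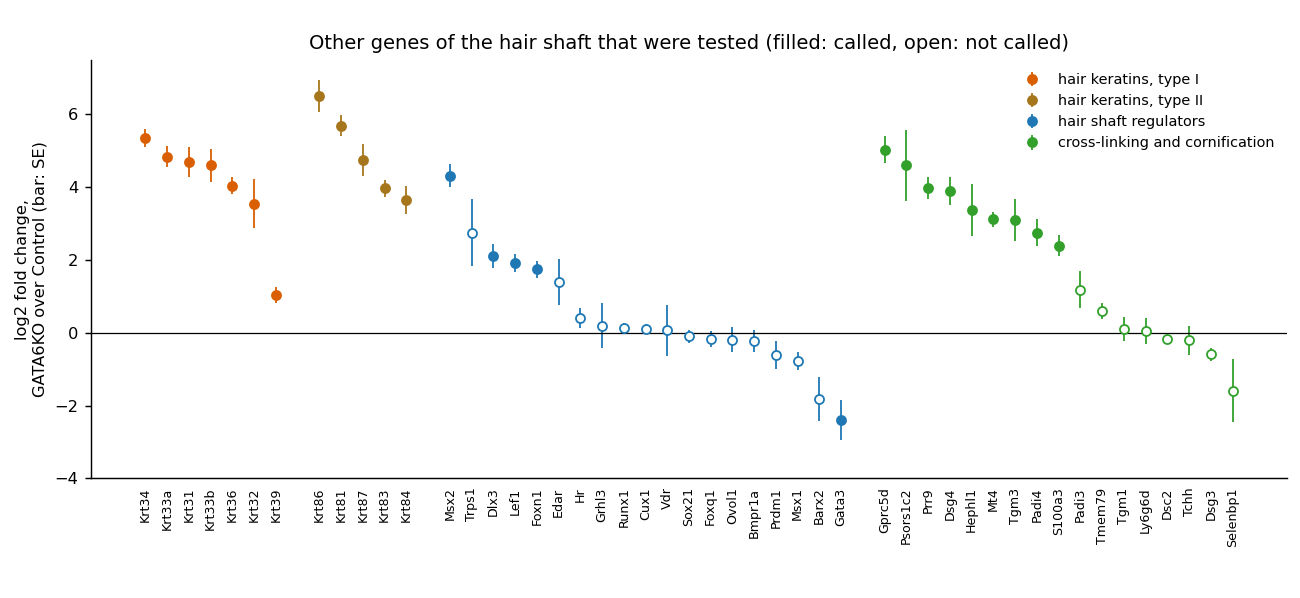
Log2 fold change (GATA6KO over Control, bars are SE calculated back from the test) of the tested genes of 4 lists, filled where called and open where not. All 12 tested hair keratins lie above 0, while the regulators and the cross-linking genes spread on both sides of 0.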

How the data were processed

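Poly(A) RNA of 3 GATA6KO and 3 Control organoid libraries was sequenced from a directional kit, per the labels' protocols. The authors deposited estimated counts per gene as whole numbers, unscaled between libraries. The submitters' processing notes name Salmon 1.3.0 and, as genome build, mm10. The annotation, how transcripts were summed to genes and whether strand was used are not given in the sources. Sample titles gave the groups and the replicate numbers. No label says that a replicate number marks a shared batch, so no block was used in the fit reported. Same-numbered libraries did not deviate together (correlations of -0.010, 0.074 and -0.092 over 14714 genes).

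Of 54418 gene IDs, 54096 matched GENCODE M21 on GRCm38, which gave symbols, positions, exonic lengths and coding sequences. Deposited counts, already whole, were fitted across all genes with edgeR 4.0.16 (filterByExpr with a minimum count of 10, TMM scaling, robust quasi-likelihood test) in R 4.3.3. A gene was called at a Benjamini-Hochberg adjusted p under 0.05 over all genes tested. The SE beside a log2 fold change was calculated back from the test, as the absolute log2 fold change over the square root of its F statistic. The fit was tested on simulated counts with known fold changes. CPM are deposited counts divided by the TMM-scaled library size. A gene with no Control count was compared with a floor of 3 counts over the Control group, and one with 1 to 3 by a pooled ratio with an exact 95% interval, both covering counting error only. Classes follow the family number, and a cluster is a run of members less than 1 Mb apart. Shared sequence was counted as 31-base words of a gene's exons found in another gene. Genes were named by rule: members averaging at least 10 CPM in GATA6KO, the most abundant of each class and cluster, members tested but not called, and up to 4 called genes per list. Other genes given with values were chosen after those were seen. Alternatives were DESeq2 1.42.0, limma-voom (limma 3.58.1), 2 other scalings, 2 other filters, a replicate block and leaving out each library. The members, lists and tests were chosen with earlier results of these data known.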

Additional observations from a re-analysis of the deposited data

How the results depend on the processing

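The number of Krtap genes called higher, 20, lay between 14 and 25 over the other scalings, filters and tests, and between 15 and 22 when each library was left out. Leaving out Control replicate 3 lost Krtap13, Krtap22-2, Krtap3-1, Krtap6-1 and Krtap8-1, and GATA6KO replicate 1, the library with most Krtap counts, could be left out with 21 called. The fit with the replicate number as a block called 480 genes higher and 347 lower, in place of 1018 and 805, with 19 Krtap genes and 23 hair-list genes higher, no hair-list gene lower, and 2 genes higher and 2 lower beside the clusters. DESeq2 called 1709 genes higher and 1529 lower, 3 hair-list genes lower and 7 genes lower beside the clusters. Leaving out each library gave 202 to 2235 genes higher and 130 to 2125 lower, 0 to 6 hair-list genes lower, 1 to 6 genes higher and 1 to 6 lower beside the clusters, and 7 to 15 genes higher inside them. The stricter filter, which tests fewer genes, left 5 genes called inside the clusters and 2 called higher beside them. Beside the clusters 2 genes were lower with scaling by library total alone, with no filter and in the 250 kb window, and with no filter no hair-list gene was lower. Scaling by library total put the median over all genes tested at 0.09 (log2). Classes by composition held 83.7%, 12.5% and 3.81% of Krtap counts. Of 115 alternative log2 fold changes of named Krtap genes, 5 moved by more than the SD of the GATA6KO libraries: Krtap6-5 ran between 5.97 and 9.25, Krtap2-4 between 5.77 and 6.97, and Krtap4-13 reached 1.33. The 9.25 came without Control replicate 2, which held the only Control counts of Krtap6-5, so that value has no measured Control level behind it. Within the SD of the GATA6KO libraries, leaving out GATA6KO replicate 1 put Krtap3-3 at 4.88, Krtap3-1 at 4.33 and Krtap1-3 at 2.64. Of 517 for other named genes 70 lost the call, and no called value changed sign, while the uncalled Krt14 and Tchh did. The cause of these changes was not tested. Depth limits the Control side, where 3 libraries together held 360 Krtap counts.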
